A study of Mus musculus with 4 samples.

Results

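The 10 genes described here were chosen by name: the AP-1 subunits *Fos*, *Fosb*, *Jun* and *Junb*, the other immediate early genes *Egr1*, *Ier2* and *Dusp1*, and the stress-induced genes *Atf3*, *Hspa1a* and *Hspa1b*. All 10 of 10 were present among the 16600 genes of the table. Immediate early genes are switched on within minutes of a stimulus, without new protein synthesis, by transcription factors that already sit in the cell. Many of them encode transcription factors themselves, and in neurons their transcripts are used as a mark of recent activity. Inducible heat shock genes encode chaperones that bind unfolded proteins and are raised by heat, by other kinds of stress and by handling of tissue. Both groups of genes are also known to respond when a tissue is dissociated into single cells.

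The cells came from the cortex of C57BL/6J mouse fetuses at E18.5, either wild type (WT) or heterozygous (Het) for a knockout allele of *Setd5*, a gene that encodes a SET domain protein. All of them were dissociated, stained and sorted as CD24+ CD45- cells, a gate for a pan-neuronal marker and against a hematopoietic one, before droplet sequencing at the 3' end. With 2 libraries per genotype, named WT3, WT6, Het5 and Het9 by the prefix of their cells, the table held 6562 cells. Undissociated tissue was not measured, so transcripts present in the fetal cortex and transcripts induced during preparation cannot be told apart.

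Each library held 1445 to 1954 cells with 8205330 to 11742956 transcript molecules, counted as unique molecular identifiers (UMIs). The median was 5398 to 5997 UMIs per cell. Levels are means over cells of counts per 10000 UMIs. That of *Setd5* was 1.20 in WT3, 1.08 in WT6, 0.530 in Het5 and 0.581 in Het9. In the cells of clusters 0 to 10, 13 and 14, *Xist*, the transcript that silences an X chromosome in females, was at 21.3 in WT3 and 22.1 in WT6 but at 0.00316 in Het5 and 0.00855 in Het9, and the Y-linked genes *Ddx3y* and *Eif2s3y* were high in the Het libraries, so sex and genotype cannot be told apart in any comparison below. The labels name samples, and the study's legend counts fetuses, as many per genotype as there are libraries. Which fetus gave which library is not stated, and the p-values measure the spread between these libraries.

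The cells fell into 15 clusters, numbered from 0 by size and made without the listed response genes. Clusters were named from markers where at least 3 fitted, and the names were rebuilt here. Clusters 0 (*Cntn2*, *Hs6st2*), 3 (*Ttr*, *Aldoc*, *Fabp7*), 4 (*Npy*, *Htr3a*, *Lhx6*) and 8 (*Ebf1*, *Zfp503*, *Isl1*) were excitatory neuron-like, radial glia-like, migrating interneuron-like and striatal neuron-like. Cluster 2 (*Top2a*, *Nusap1*, *Ube2c*) held cycling cells, cluster 6 (*Neurog2*, *Eomes*, *Rhbdl3*) was intermediate progenitor-like and cluster 7 (*Gsx1*, *Nbl1*, *Dleu7*) was interneuron or subpallial progenitor-like. Clusters 1 (*Cxcl12*, *Nrn1*, *Cdh8*), 5 (*Tac2*, *Synpr*, *Lhx9*), 9 (*Hells*, *E2f1*, *Neurog2*) and 10 (*Tfap2d*, *Thsd7a*, *Adgrl3*) are called by number. *Ttr*, a choroid plexus gene, was found in 2.12% of the cells of cluster 3, 0 of 98 in WT3, 4 of 246 in WT6, 4 of 236 in Het5 and 7 of 126 in Het9, where its level was 20.7 against at most 0.251 in the other libraries. The small clusters 13 (*Reln*, *Rspo3*, *Lhx1os*) and 14 (*Hba-a1*, *Hbb-bt*, *Hba-a2*) were Cajal-Retzius-like and erythroid-like, with 35 and 27 cells.

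Clusters 11 (*Dct*, *Pmel*, *Gpnmb*; melanocyte-like, 147 cells) and 12 (*Cd74*, *H2-Ab1*, *H2-Aa*; immune cell-like, 105 cells) stood apart from the rest. In them, 143 and 90 cells carried a cell barcode that was present in 3 or 4 of the 4 libraries, and no cell of another cluster did. These 233 cells, 3.55% of all cells with 2.53% of all UMIs, came from 59 barcodes, 56 of them in all 4 libraries. A further 22 barcodes were found in 2 libraries, in 44 cells. All cells of each of the 59 barcodes lay in 1 cluster, and their UMI totals were close, with a median ratio of 1.06 between the highest and the lowest. Across 8142 genes the profiles of 1 barcode in different libraries had a median Pearson r of 0.700 in cluster 11 and 0.613 in cluster 12, against 0.580 and 0.485 between different barcodes of that cluster. The cells also went against their sort and labels. *Cd24a* was detected in 2.80% of the shared-barcode cells of cluster 11 and 21.1% of those of cluster 12, against 93.3% of the cells of clusters 0 to 10, 13 and 14, and *Ptprc*, which encodes CD45, was detected in 74.4% of those in cluster 12. In the cells of cluster 12 *Xist* was at 10.7, 8.98, 9.01 and 11.1 in WT3, WT6, Het5 and Het9, so it did not follow the library. Copies of 1 barcode are not replicates. Below, a shared barcode means one in 3 or more libraries. The shared-barcode cells were therefore left out of the comparisons below unless stated, and the values with them are given beside. The 44 cells with a barcode in 2 libraries, 6 of them in clusters 11 and 12, were not counted among them.

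Most transcripts of the stress-induced genes, and over 50% of those of 3 AP-1 subunits, lay in these 233 cells. Of all UMIs of *Atf3*, a stress-induced partner of the AP-1 factors, 93.4% (of 473) were in shared-barcode cells. For *Hspa1a* and *Hspa1b*, which encode the inducible HSP70 chaperone, the shares were 91.3% (of 471) and 93.8% (of 80). *Junb*, *Fosb* and *Fos* followed with 70.1% (of 576), 66.8% (of 497) and 54.0% (of 3081). The shares were lower for *Jun* at 29.3% (of 4084), *Egr1* at 28.4% (of 278), *Dusp1* at 17.9% (of 1454) and *Ier2* at 15.7% (of 1953). All 10 were above the median gene, which had 1.82% of its UMIs there over the 10904 genes with at least 100 UMIs, 1.35% of which were over 50%. These shares are a description of the table and have no test.

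**Figure D1:**
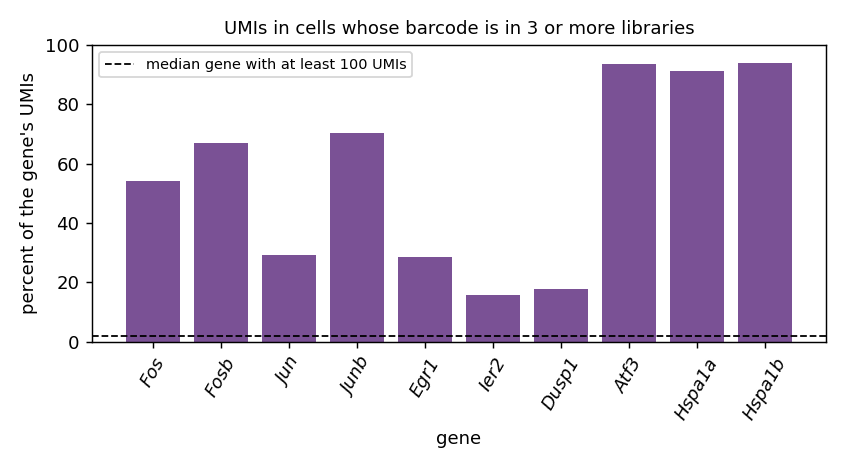
Percent of each gene's UMIs that lie in the 233 cells whose barcode occurs in 3 or more libraries (bars), with the median gene at 1.82% (dashed line). The bars run from 15.7% for *Ier2* to 93.8% for *Hspa1b*.

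With the shared-barcode cells and clusters 11 and 12 left out, 6310 cells remained, in which the 10 genes fell into 3 ranges. *Jun*, *Fos*, *Ier2* and *Dusp1* had 2831, 1351, 1634 and 1176 UMIs. *Egr1*, *Fosb* and *Junb* had 192, 153 and 132. *Hspa1a*, *Atf3* and *Hspa1b* had 14, 5 and 2 UMIs in all.

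*Fos* lies on chromosome 12 (85473890 to 85477273, plus strand, GRCm38) and encodes the AP-1 subunit that pairs with a JUN protein. In the 6310 cells its level was 0.422 in WT3, 0.579 in WT6, 0.322 in Het5 and 0.301 in Het9. Both Het libraries lay below both WT libraries. In the 6329 cells, which add 19 cells of clusters 11 and 12, its level was 0.441, 0.579, 0.329 and 0.472. There the genotypes overlapped. In the shared-barcode cells it was 16.7, 17.7, 17.2 and 17.8 in WT3, WT6, Het5 and Het9, with no order by genotype. Over all 6562 cells the values were 1.08, 1.10, 0.911 and 1.17, so Het9 was the lowest library in the first set of cells and the highest in the last.

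*Jun* on chromosome 4 (95049034 to 95052222, minus strand), the partner of FOS in AP-1, was at 0.716, 0.787, 0.728 and 0.730 in WT3, WT6, Het5 and Het9 over the 6310 cells. Its libraries overlapped between genotypes and differed less than those of *Fos*. In the shared-barcode cells the mean of the libraries was 12.7. *Fosb* on chromosome 7 (19302696 to 19310051, minus strand), a paralog of *Fos*, was at 0.0393, 0.0761, 0.0312 and 0.0302 in the 6310 cells, lower in both Het libraries. In the 6329 cells *Fosb* was at 0.0444, 0.0761, 0.0349 and 0.0581, and its genotypes overlapped. *Junb* on chromosome 8 (84974484 to 84978718, minus strand) was at 0.0288, 0.0445, 0.0301 and 0.0428 in the 6310 cells, with overlapping genotypes. In the shared-barcode cells *Junb* was at 6.22, 6.32, 7.22 and 6.37.

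*Egr1* on chromosome 18, a zinc finger factor raised by neuronal activity, was at 0.0725, 0.0935, 0.0459 and 0.0315 in WT3, WT6, Het5 and Het9 over the 6310 cells, again lower in both Het libraries. *Ier2* on chromosome 8 (84661331 to 84662852, minus strand), a nuclear protein of the early response, was at 0.382, 0.407, 0.451 and 0.431, higher in both Het libraries. *Dusp1* on chromosome 17 (26505590 to 26562128, minus strand, a span that holds the RefSeq start used for its promoter), a phosphatase that switches off MAP kinases, was at 0.322, 0.391, 0.364 and 0.375, and its genotypes overlapped. Over all cells without a shared barcode, the libraries of the genotypes did not overlap for 32.4% of genes. In the shared-barcode cells the means over the 4 libraries were 1.04 for *Egr1*, 2.83 for *Ier2* and 4.03 for *Dusp1*.

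*Atf3* on chromosome 1 (191170296 to 191218039, minus strand) was found in 5 of the 6310 cells, 0.0792% of them (exact 95% interval 0.0257% to 0.185%), and in 131 of the 233 shared-barcode cells (56.2%). *Hspa1a* on chromosome 17 (34969190 to 34972156, minus strand) was found in 14 of the 6310 cells, 0.222% (0.121% to 0.372%), and in 83 shared-barcode cells (35.6%). *Hspa1b*, its neighbor on chromosome 17 (34956436 to 34959238, minus strand), was found in 2 and 51 cells. No *Hspa1b* UMI was seen in the 1394 cells of WT3 and the 1648 cells of Het5, which allows shares of cells with a UMI of up to 0.215% and 0.182% and sets no limit on cells that express the gene. Every cell with one of these 3 transcripts among the 6310 had a single UMI of it. Intervals and limits cover counting error only.

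**Figure D2:**
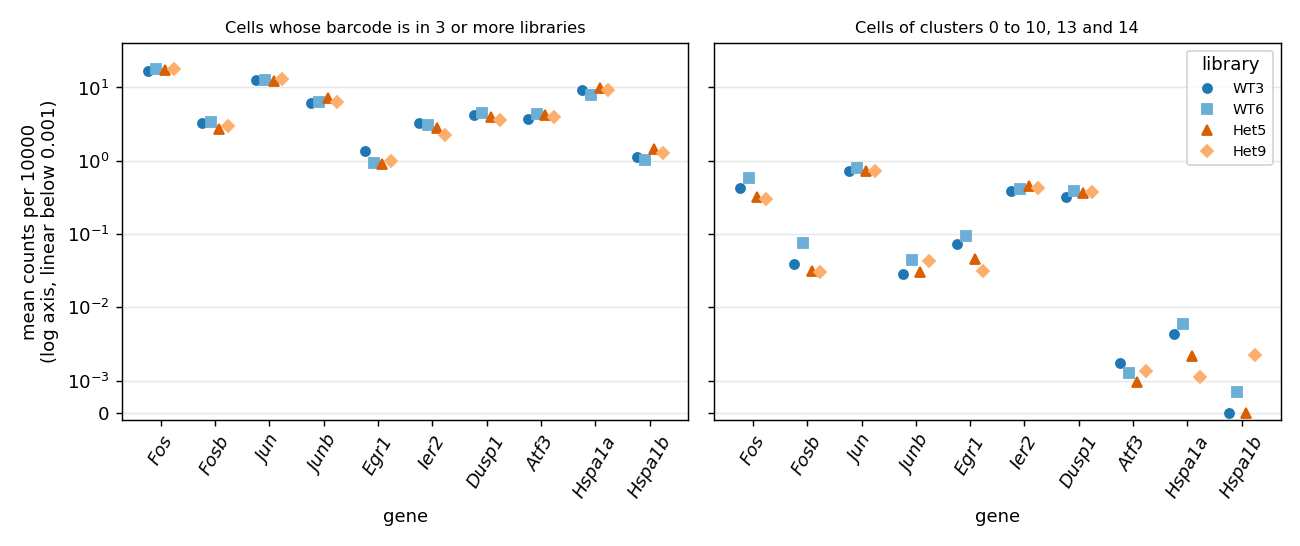
Mean counts per 10000 of each gene in each library (points; log axis, linear below 0.001), in the shared-barcode cells (left) and in the 6310 cells of clusters 0 to 10, 13 and 14 (right). *Fos* is between 16.7 and 17.8 on the left and between 0.301 and 0.579 on the right, and the 3 stress-induced genes lie near 0 on the right.

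The promoters of 8 of the 10 genes were matched in RefSeq (GRCm38.p6), as the 250 bases before the annotated start. *Hspa1a* and *Hspa1b* are near copies, and their promoters are shown since both transcripts were highest in cluster 12. The sequences are at chr17:34972157-34972406 and chr17:34959239-34959488 on the minus strand, written 5' to 3' in gene direction, with capitals at the 3 positions that differ (98.8% identity).
Hspa1a: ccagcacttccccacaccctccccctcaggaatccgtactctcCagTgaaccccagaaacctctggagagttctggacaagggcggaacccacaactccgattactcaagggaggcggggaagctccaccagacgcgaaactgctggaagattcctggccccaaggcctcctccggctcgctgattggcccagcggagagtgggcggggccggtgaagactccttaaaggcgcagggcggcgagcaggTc
Hspa1b: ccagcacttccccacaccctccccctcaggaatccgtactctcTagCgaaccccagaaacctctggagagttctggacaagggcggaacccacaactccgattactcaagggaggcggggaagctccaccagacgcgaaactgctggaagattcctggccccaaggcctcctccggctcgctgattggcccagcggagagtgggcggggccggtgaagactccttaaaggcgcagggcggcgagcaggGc
The annotated transcripts were 86.3% identical, but only 56.7% identical over their last 300 bases, the end that the 3' kit reads. How the reads of the pair were assigned is not given in the sources used here, so their separate values are uncertain.

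The promoters of *Fos* (chr12:85473640-85473889, plus strand) and *Dusp1* (chr17:26508473-26508722, minus strand) are shown for the motifs they hold, in capitals: a TATA box (TATAAA) in *Fos* and a cyclic AMP response element (TGACGTCA) in *Dusp1*.
Fos: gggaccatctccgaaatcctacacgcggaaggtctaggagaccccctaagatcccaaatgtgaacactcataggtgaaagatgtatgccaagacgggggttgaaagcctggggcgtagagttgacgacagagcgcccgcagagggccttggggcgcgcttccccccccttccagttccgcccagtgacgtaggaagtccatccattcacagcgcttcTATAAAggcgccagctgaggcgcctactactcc
Dusp1: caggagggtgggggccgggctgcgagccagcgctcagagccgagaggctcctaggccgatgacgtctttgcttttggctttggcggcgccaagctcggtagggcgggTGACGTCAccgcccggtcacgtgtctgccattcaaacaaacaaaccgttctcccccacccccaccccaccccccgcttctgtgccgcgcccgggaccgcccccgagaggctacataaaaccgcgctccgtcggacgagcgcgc
The search covered both strands of the 250 bases for TATAAA, TGACGTCA, the AP-1 site (TGANTCA), the CArG box, the CCAAT box (CCAAT) and the heat shock element of 3 alternating GAA and TTC units with NN between them. Of 32851 promoters, 12.4% held the TATA box, 1.55% the cyclic AMP response element, 6.75% the AP-1 site, 1.47% the CArG box, 33.8% the CCAAT box and 0.466% the heat shock element. Among the 8 promoters, the CCAAT box was found in those of *Jun*, *Junb*, *Hspa1a* and *Hspa1b*, and the AP-1 site, the CArG box and the heat shock element in none. Only exact matches within the 250 bases were counted. Sites further upstream, or with other letters or fewer units, were not searched for, so this does not show that a gene lacks such a site.

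Within clusters 11 and 12 the genes differed from one another. In the shared-barcode cells of cluster 11, *Fos* was at 15.2 to 15.9, *Jun* at 10.6 to 12.1, *Fosb* at 3.21 to 3.76, *Atf3* at 3.36 to 3.89, *Ier2* at 2.14 to 3.49 and *Junb* at 1.51 to 1.96 over the 4 libraries. In cluster 12, *Hspa1a* was at 20.01 to 25.3, *Fos* at 19.1 to 21.1, *Jun* at 13.6 to 15.9, *Junb* at 13.1 to 15.6, *Dusp1* at 6.99 to 9.04 and *Atf3* at 3.93 to 5.29. *Hspa1a* was at 0 to 0.0996 in cluster 11, so it was among the highest members in 1 of the clusters and near 0 in the other. *Dusp1* and *Egr1* were at 1.28 to 1.62 and 0.554 to 1.13 in cluster 11, and *Egr1* at 1.27 to 1.71 in cluster 12. *Hspa1b* was at 0.232 to 0.329 in cluster 11 and 2.18 to 3.25 in cluster 12. The cells of cluster 12 were shallow, with a median of 1948.5 UMIs against 5362 in cluster 11.

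The level of a barcode was repeated between libraries. Of the 36 barcodes of cluster 11, 5 had no *Fos* UMI in any library and 18 had 5 or more in every library, and the barcode with the highest count had 28 to 35 *Fos* UMIs in each of its cells. Of the 23 barcodes of cluster 12, 3 had no *Fos* UMI in any library, and 5 had 5 or more in every one. The mean Pearson r of *Fos* across barcodes between pairs of libraries was 0.864 over 36 barcodes and 0.733 over 23, and that of *Jun* was 0.774 and 0.753. *Hspa1a* was found in every library for 18 of the 23 barcodes of cluster 12 and for 0 of the 36 of cluster 11. For *Fos* and *Jun*, counts ranged more widely between the barcodes of a cluster than between the libraries that held a barcode.

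**Figure D3:**
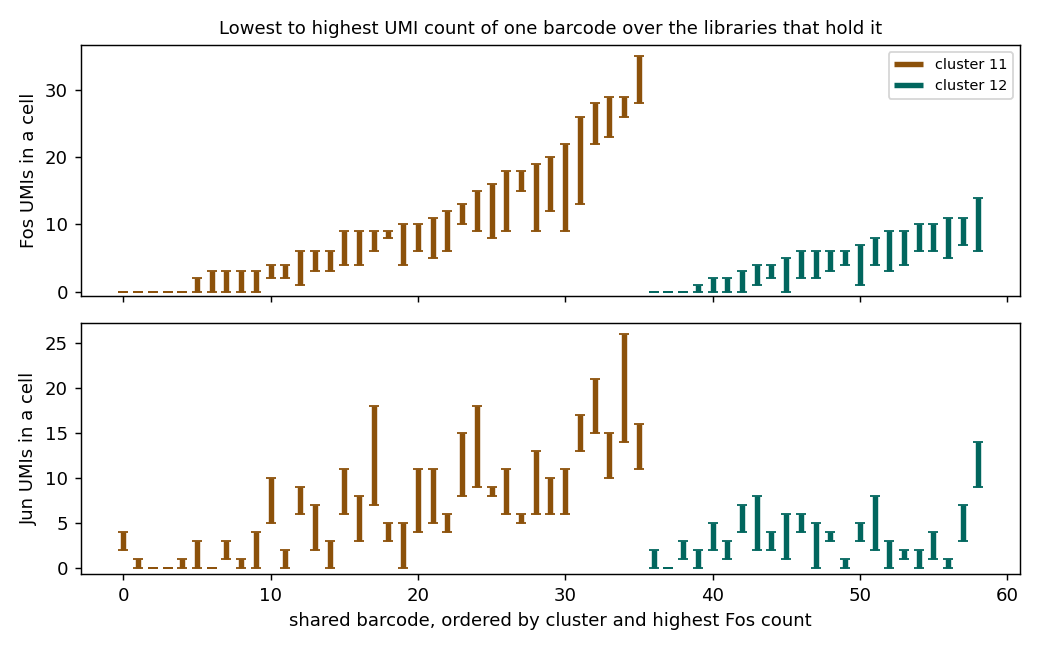
UMIs of *Fos* (top) and *Jun* (bottom) in the cells of each of the 59 shared barcodes, as the lowest to the highest count over the libraries that hold the barcode. Barcodes are ordered by cluster and highest *Fos* count, which reaches 35 in cluster 11 and 14 in cluster 12.

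The members were also found together in the same cells there. Of the 7 immediate early members (*Fos*, *Fosb*, *Jun*, *Junb*, *Egr1*, *Ier2* and *Dusp1*), 4 or more had a UMI in 147 of the 233 shared-barcode cells, 63.1%. The 233 cells come from 59 barcodes, of which 22 had 4 or more members in every library and 12 in none, so no interval is given. In the other 6310 cells this was so for 53 cells, 0.840% (exact 95% interval 0.630% to 1.10%), and 2566 cells (40.7%) had none of the 7. By library these were 15, 20, 10 and 8 cells in WT3, WT6, Het5 and Het9. Across the 6310 cells, the mean Pearson r within libraries was 0.11 between *Fos* and *Egr1*, 0.10 between *Fos* and *Fosb*, and 0.059 between *Fos* and *Jun*, all weak in counts this sparse. These values include differences in level between clusters. In the same order of pairs they were 0.019, 0.032 and -0.0031 within cluster 0, and 0.086, 0.074 and 0.13 within cluster 2. Within cluster 8 they were 0.11, 0.071 (no *Fosb* UMI in Het5) and 0.068. The highest count in a cell was 35 for *Fos* over all cells and 5 over the 6310.

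Among clusters 0 to 10 the genes had different orders. *Fos* was highest in the striatal neuron-like cluster 8, at 1.26, 1.39, 0.873 and 0.606 in WT3, WT6, Het5 and Het9, and next in cluster 4, at 0.784, 1.01, 0.682 and 0.759. Cluster 2, the cycling cells, had 0.902, 0.566, 0.255 and 0.439, and cluster 0 had 0.262, 0.824, 0.467 and 0.276. The lowest means were 0.141 in cluster 9, 0.169 in cluster 10 and 0.174 in cluster 6. Neighbors in the order overlapped over libraries in all 10 steps, while all 4 libraries of cluster 8 lay above all 4 of clusters 1, 3, 5, 6, 7, 9 and 10.

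*Jun* had another order. It was highest in the radial glia-like cluster 3, at 2.40, 1.80, 1.92 and 1.63, followed by cluster 4 (mean 1.24 ± 0.314, SD, n = 4), cluster 2 (1.02 ± 0.0572) and cluster 8 (0.944 ± 0.292). It was lowest in cluster 1, at 0.238, 0.244, 0.119 and 0.220. Again all 10 steps between neighbors overlapped. *Ier2* was highest in cluster 5, at 0.713, 0.929, 0.836 and 0.772, where *Fos* had a mean of 0.189, and lowest in cluster 10 (mean 0.0948). In cluster 8, where *Fos* was highest, *Ier2* had a mean of 0.163. *Dusp1* was highest in clusters 8 and 4 (means 0.652 and 0.619) and lowest in the radial glia-like cluster 3, at 0.0861, 0.0426, 0.0666 and 0.0408, where *Jun* was highest. For *Ier2* and *Dusp1*, 2 and 1 of the 10 steps between neighbors did not overlap.

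*Egr1* and *Fosb* were highest in cluster 8 (means 0.219 and 0.135) and *Junb* in cluster 5 (0.0645), from 27, 20 and 28 UMIs, so their orders were not resolved at this depth. In clusters 0 to 10, *Atf3*, *Hspa1a* and *Hspa1b* had 5, 13 and 2 UMIs in all and no order is given.

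**Figure D4:**
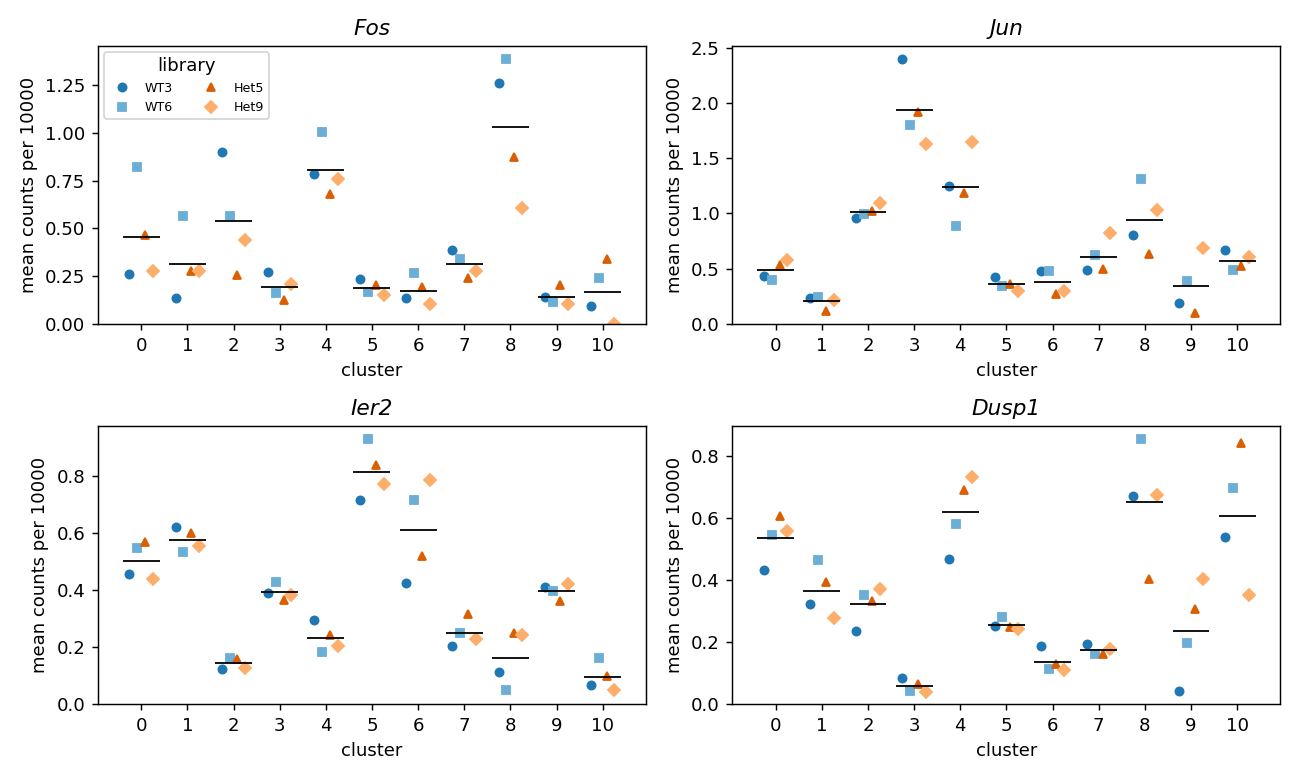
Mean counts per 10000 of *Fos*, *Jun*, *Ier2* and *Dusp1* in clusters 0 to 10 (points, 1 per library; black lines, mean of the 4 libraries). *Fos* has its highest mean in cluster 8 (1.03), *Jun* in cluster 3 (1.94), *Ier2* in cluster 5 (0.813) and *Dusp1* in cluster 8 (0.652).

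Depth differed between clusters, from a median of 3640 UMIs per cell in cluster 8 to 8161.5 in cluster 5, so the share of cells with a UMI was taken after thinning each cell to 3000 UMIs. The share with *Fos* was 20.4% in cluster 8, 14.1% in cluster 4, 13.3% in cluster 2 and 3.59% in cluster 6. *Jun* was found in 38.3% of the cells of cluster 3 and 4.82% of cluster 1. Over the 5906 cells with at least 3000 UMIs, *Jun* was found in 16.3%, *Ier2* in 11.6%, *Dusp1* in 9.67% and *Fos* in 9.33%, against 26.0%, 20.7%, 16.0% and 16.5% of the 6329 cells without thinning. *Egr1*, *Fosb* and *Junb* were found in 1.41%, 1.19% and 0.897%, and *Hspa1a*, *Atf3* and *Hspa1b* in 0.152%, 0.0508% and 0.0339%.

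The genes whose means were most like those of a member over the 44 points of 11 clusters and 4 libraries, by Pearson r, were *Tiam2* (0.81), *Tpgs2* (0.80) and *Slc32a1* (0.77) for *Fos*. They were *Rgma* (0.82), *Id4* (0.81) and *Ssbp2* (0.80) for *Jun*, *Atp6v0e* (0.91), *Nfix* (0.85) and *Slc30a10* (0.84) for *Ier2*, and *Cdk5r1* (0.89), *Rufy3* (0.89) and *4930402H24Rik* (0.88) for *Dusp1*. The points share libraries and clusters, and no other member was among them. Across the 1282 cells of cluster 0 the highest r within libraries was 0.16, between *Jun* and *Jund*.

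The spread between libraries of the same genotype was compared with that of all genes on the scale of log2(counts per 10000 + 0.1). Over the 6329 cells left without shared barcodes, *Fos* differed by 0.33 between WT3 and WT6 and by 0.42 between Het5 and Het9, larger than for 96.4% and 97.8% of the 8037 genes tested. Genes with a like level had medians of 0.080 and 0.084. *Jun* differed by 0.098 and 0.25, *Dusp1* by 0.20 and 0.18, and *Ier2* by 0.068 and 0.031. The median of all genes was 0.080 in WT and 0.086 in Het. Without clusters 11 and 12 the difference of *Fos* between WT libraries was 0.38, and that between Het libraries was 0.072. The difference between Het libraries was then 0.0042 for *Jun*, 0.036 for *Dusp1* and 0.055 for *Ier2*.

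Part of the spread between the Het libraries came with few cells. In clusters 11 and 12 there were 19 cells whose barcode was in fewer than 3 libraries, 6 of them with a barcode found in 2 libraries. By library, 14 of the 19 were in Het9, 3 in Het5, 2 in WT3 and 0 in WT6. Those of Het9 held 44 *Fos*, 32 *Junb*, 21 *Hspa1a* and 20 *Atf3* UMIs. With these 19 cells, *Junb* was at 0.0379 in Het5 and 0.198 in Het9, and without them at 0.0301 and 0.0428. The immune cell marker genes, 11 of them with 1 at 0, summed to 0.158, 0.169, 0.518 and 3.10 counts per 10000 in WT3, WT6, Het5 and Het9 with the 19 cells, and to 0.159, 0.169, 0.141 and 0.206 without them.

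Within clusters, *Fos* varied between libraries of 1 genotype in either direction. By UMIs summed over the cells of a cluster and divided by their total, a quantity that differs from the mean over cells, *Fos* was 2.98 times as high in WT6 as in WT3 in cluster 0 (exact 95% counting interval 2.08 to 4.35). In cluster 1 the ratio of summed UMIs was 3.73 (2.17 to 6.76). In cluster 2 the ratio was 0.668 (0.502 to 0.886), and WT3 was the higher library. WT6 was above WT3 in 6 of 11 clusters. The counting interval of the ratio left out 1 in 3 of the 11 between the WT libraries and in 2 between the Het libraries. For *Jun* the interval left out 1 in 2 clusters in WT and 2 in Het, and for *Ier2* and *Dusp1* in none of 10. The median size of the *Fos* difference over clusters was 0.50 in WT and 0.46 in Het on the log2 scale. Within a cluster it was larger than that of a median of 78.8% of genes in WT and 75.8% in Het.

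The comparison of genotypes asks whether the response genes differ between Het and WT cells. Over the 6329 cells whose barcode was in fewer than 3 libraries, 4 members passed the filter on low values, *Fos*, *Jun*, *Ier2* and *Dusp1*. None was called (limma with a variance trend, Benjamini-Hochberg adjusted p under 0.05, background 0.0871% of 8037 genes). The log2 difference of *Fos*, Het over WT, was -0.29 (SE 0.15, unadjusted p = 0.096, adjusted p = 0.997 by limma), and that of *Ier2* 0.18 (SE 0.073, unadjusted p = 0.0428, adjusted p = 0.997). *Jun* differed by 0.077 (SE 0.094) and *Dusp1* by 0.12 (SE 0.10). The *Fos* difference was -0.45 without WT3, -0.13 without WT6, -0.083 without Het5 and -0.50 without Het9. That of *Dusp1* was 0.019, 0.22, 0.21 and 0.026 in the same order. *Ier2* was the only one of the 4 whose genotypes did not overlap, as was the case for 32.4% of all genes. Without clusters 11 and 12 the *Fos* difference was -0.53 (SE 0.12, unadjusted p = 0.00318, adjusted p = 0.623 by limma) with genotypes that did not overlap, and that of *Jun* turned to -0.037. The *Fos* difference was -0.44 from UMIs summed over cells and -0.46 in thinned cells, without a call in either. Thinning also left out the cells under 3000 UMIs, and 5901 of the 5906 thinned cells lay outside clusters 11 and 12. With the shared-barcode cells kept the *Fos* difference was -0.068, 9 members passed the filter and none was called.

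Within the 11 clusters with at least 20 cells in each library, 46 pairs of a member and a cluster passed the filter, from *Fos*, *Jun*, *Ier2*, *Dusp1*, *Egr1* and *Fosb*. None of the 46 was called by limma (background 0.128% of all 84165 pairs of a gene and a cluster). An unadjusted p under 0.05 was reached by 8 pairs, 17.4%, against 5.20% of all pairs, and the genotypes did not overlap in 17 pairs, 37.0%, against 33.9%. The pairs share libraries and are not independent. Of the 17, 11 were lower in Het and 6 higher.

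*Fos* was lower in Het in 10 of 11 clusters, with a median log2 difference of -0.27, and the genotypes did not overlap in 4, clusters 2, 4, 7 and 8. In cluster 2 the difference was -0.90 (SE 0.22, unadjusted p = 0.000618, adjusted p = 0.384 by limma), and in cluster 8 it was -0.78 (SE 0.27, adjusted p = 0.680). In clusters 4 and 7 it was -0.27 and -0.36, and in cluster 4 it was -0.43 without WT3 and -0.11 without WT6. In cluster 0 it was -0.32 (SE 0.28), and it depended on the library. Without WT3 it was -1.001 (adjusted p = 1.19e-05 by limma), and without WT6 it was 0.35. In cluster 2 it was -1.20 without Het9 (adjusted p = 5.07e-06 by limma) and -0.60 without Het5. Leaving out a library leaves 1 in its genotype, which is then assumed to vary like the other pair.

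*Egr1* in cluster 2 was at 0.167, 0.125, 0.0713 and 0.0606 in WT3, WT6, Het5 and Het9, with a log2 difference of -0.56 (SE 0.22). *Fosb* in cluster 8 was at 0.189, 0.260, 0 and 0.0917, with a difference of -1.22 (SE 0.50) that rests on 20 UMIs and was -0.75 without Het5. For both, the Het libraries lay below the WT libraries. The size of these differences depends on the pseudocount. With 0.01 in place of 0.1 they were -1.03 for *Egr1* and -2.86 for *Fosb*, and with 1 they were -0.10 and -0.23. In thinned cells that of *Egr1* was -0.023. *Jun* was higher in Het in cluster 0, by 0.34 (SE 0.14), and lower in cluster 6, by -0.60 (SE 0.24). *Dusp1* in cluster 9 was at 0.0418, 0.197, 0.307 and 0.404, a difference of 1.14 (SE 0.43) from 25 UMIs, 1 of them in WT3, that was 0.61 without WT3 and 1.68 without WT6. *Ier2* in cluster 8 differed by 0.95 (SE 0.47), from 20 UMIs. With a pseudocount of 0.01 and of 1, *Dusp1* differed by 1.81 and 0.28 and *Ier2* by 1.57 and 0.20, and in thinned cells *Dusp1* differed by 1.97. None of these passed the adjusted threshold.

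**Figure D5:**
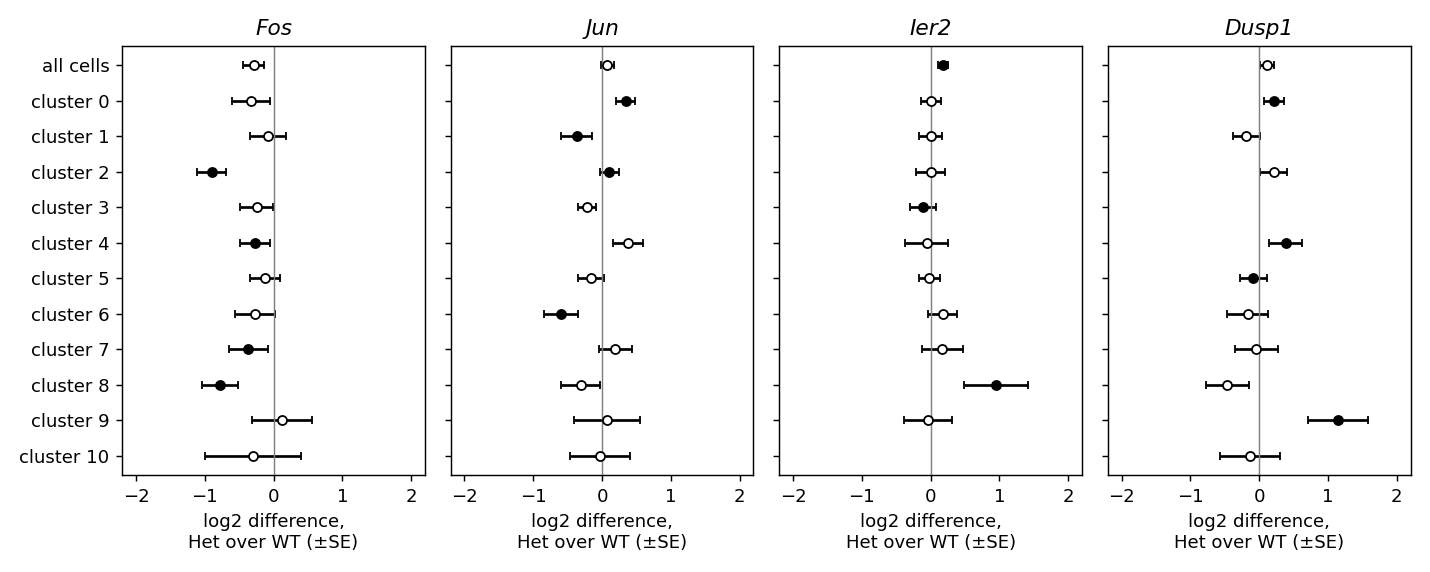
Log2 difference of Het over WT for *Fos*, *Jun*, *Ier2* and *Dusp1* (points; bars, SE of limma; filled points, genotypes that do not overlap). Rows are the 6329 cells whose barcode is in fewer than 3 libraries (all cells) and clusters 0 to 10. *Fos* lies below 0 in 10 of 11 clusters, and no point passed the adjusted threshold.

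Whether a genotype difference in a cluster departs from that of the other cells was tested for the same 46 pairs, and none was called by limma (background 0.101%). The lowest adjusted p was 0.618, for *Jun* in cluster 6, and 7 pairs (15.2%) had an unadjusted p under 0.05, against 5.33% of all pairs. Leaving out Het5 gave 1 call, *Jun* in cluster 3, at -0.68 (adjusted p = 0.00368 by limma), against -0.30 with all libraries.

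Genes of the same pathways were read from 4 lists. Among the other immediate early genes, 42 of 45 were present and 14 tested over the 6329 cells, and 0 were called in either direction, with a median log2 difference of 0.12 against -0.0028 for all genes. *Jund*, another AP-1 subunit, was the highest at 2.27, 3.31, 2.82 and 3.92 counts per 10000, followed by *Gadd45g* and *Ier5* with means of 2.50 and 1.31. Of the other heat shock and chaperone genes 28 of 29 were present and 23 tested, with 0 called and a median of -0.0048. The chaperone genes *Hsp90ab1*, *Hspa8* and *Hsp90aa1* had means of 30.95, 30.3 and 11.996, in the same cells in which *Hspa1a* and *Hspa1b* were near 0. Of 22 regulators 17 were tested and 0 called (median -0.013), with *Hsbp1* and *Map2k2* at 3.28 and 2.12, and of 13 genes of the integrated stress response 9 were tested and 0 called (median 0.075), led by *Cebpg*, *Ddit4* and *Atf4* at 1.03, 0.953 and 0.885.

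Within clusters, limma called 1 of the 659 pairs of a related gene and a cluster, 0.152%, near the background of 0.128% of all pairs. It was *Gadd45g* in cluster 3. *Gadd45g*, which encodes a stress-responsive protein expressed in neural progenitors, was at 2.18 in WT3, 2.37 in WT6, 3.36 in Het5 and 5.63 in Het9. Both Het libraries were higher, and they differed from each other more than the WT libraries did. The log2 difference was 0.91 (SE 0.15, adjusted p = 0.00521 by limma). The same cluster held markers of other cell types. *Neurog2*, a factor of intermediate progenitors, was at 2.43, 2.27, 4.397 and 5.03 in WT3, WT6, Het5 and Het9 (log2 difference 0.97, adjusted p = 6.92e-06 by limma), and *Gadd45g* is among the 10 leading genes of the intermediate progenitor-like cluster 6. The 8 intermediate progenitor markers summed to 4.56 to 4.99 in the WT libraries and 7.14 to 9.13 in the Het libraries, with both Het libraries above both WT libraries for 3 of the 8, as for 15.9% of the 8234 genes tested in the cluster. The 7 erythroid markers summed to 5.74 to 7.85 in WT and 19.2 to 24.3 in Het (5 of 7 higher), and the 6 glial progenitor markers to 1.28 to 1.52 and 0.442 to 0.466 (3 of 6 lower, against 18.1% of genes). No marker of these lists was at 0 in all libraries, and their part in the result was not tested. The *Gadd45g* difference was 0.85 without WT3, 0.97 without WT6 and 0.55 without Het9, and it was not called in these (adjusted p = 0.349, 0.123 and 0.577 by limma). It was 1.27 and called without Het5. At the higher clustering resolution and with the listed genes kept in clustering it was 0.67 and 0.78, without a call. *Setd5* itself differed by -0.92 over the 6329 cells (adjusted p = 0.00533 by limma), and by -0.85 without WT3 (adjusted p = 0.0518).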

How the data were processed

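Droplet RNA-Seq at E18.5 measured sorted cortical cells of 2 WT and 2 Het samples. The authors deposited 1 table on a natural log scale: counts were scaled to 10000 UMIs in each cell and 1 was added before the log. Cell Ranger 2.1, Seurat 2.3.0 and mm10 are listed in the submitters' processing notes. The gene annotation and strand setting are not given in the sources read here. All 14848520 values above 0 gave whole UMIs (tolerance 0.001). No count model was fitted. Cell-name prefixes gave the genotype and the library.

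All cells were clustered, and those with a barcode, suffix removed, in 3 or more libraries were left out of the means and tests after that. Clustering (scanpy 1.11.5, leidenalg 0.10.2) used 2000 variable genes without 123 genes (the listed genes, *Setd5* and sex genes), 20 components, 20 neighbors and the lowest resolution with a number of clusters nearest to 14, which was 0.4. Scrublet, run per library, called 64 doublets (0.975%), which were kept. limma 3.58.1 (R 4.3.3) was run on log2(mean counts per 10000 + 0.1), 1 value per library, for genes with a mean of at least 0.1, with Benjamini-Hochberg adjustment over all genes at 0.05. Only the genotype comparison over all cells was tested on simulated data, and the comparisons within and between clusters were not. With 2 against 2 libraries an exact two-sided permutation test cannot give a p below 0.33. Shares have exact binomial intervals. The members, lists and tests were chosen with earlier results of these data known, and the choice to leave out clusters 11 and 12 was made after seeing the values. The text names the members, related genes called or of the highest level in each list, the 3 genes most like a member, the 3 leading genes of each cluster, *Setd5* and the sex genes, and some genes that this rule names are not reported here. Gene positions are from GENCODE M21 (GRCm38) and promoters from RefSeq (GRCm38.p6). Alternatives were other pseudocounts, no filter, each library left out, median-ratio scaling, summed UMIs, thinned cells, doublets left out, shared barcodes kept and other clusterings.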

Additional observations from a re-analysis of the deposited data

Results flagged for a closer look

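*Gadd45g* drew attention because its genotype difference in cluster 3 departed from that of the other cells of the same libraries, by 0.91 on the log2 scale (SE 0.13, adjusted p = 5.39e-07 by limma for the difference itself). Its levels in cluster 3 were 2.18, 2.37, 3.36 and 5.63 counts per 10000 in WT3, WT6, Het5 and Het9. The intermediate progenitor gene *Neurog2* was higher in Het in the same cluster, at 2.43, 2.27, 4.397 and 5.03 in WT3, WT6, Het5 and Het9 (adjusted p = 6.92e-06 by limma), and its part in the *Gadd45g* difference was not tested. The value ranged from 0.54, without Het9, to 1.28 over 13 alternatives and was not called under 5 of them. No member of the 10 met such a rule, and groups of 2 libraries are too small to look for an outlying sample.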

How the results depend on the processing

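No paired analysis was possible because the prefixes of the cell names carry the genotype but not the replicate numbers of the labels, so no replicate block could be fitted. With the clusters pooled, 0 members and 0 related genes were called under each of 13 alternatives. Within clusters the count of members called was 0 to 1 when a library was left out and 0 under the other alternatives, and for the difference between clusters it was 0 to 1 likewise. The count of related genes called within clusters, 1 in the report, was 0 to 5 when a library was left out, and 0 at the higher resolution and with the listed genes kept in clustering. *Jun* with the clusters pooled turned from 0.077 to -0.037 with clusters 11 and 12 left out, an alternative chosen after seeing the data, and it ranged from -0.046 to 0.20 when a library was left out. The 7 immediate early members kept their highest cluster in 6 cases after thinning, in 7 with the listed genes kept in clustering, in 5 at the higher resolution, in 0 with the shared-barcode cells kept, when clusters 11 and 12 became highest, and in 1 at the lower resolution, where 6 clusters were drawn. The median spread of the members tested between Het libraries was 0.21, and 0.045 without clusters 11 and 12, 0.055 in thinned cells, 0.094 with a pseudocount of 1 and 0.27 with the shared-barcode cells kept. Of the 5906 thinned cells, 5901 lay outside clusters 11 and 12. The median share of cells with a UMI over the 10 members, 1.30% in thinned cells, was 2.58% without thinning and 2.06% with the shared-barcode cells kept. There were 2 libraries per genotype and few UMIs per gene, and the smallest difference that could be detected was not tested. The absence of a call therefore does not show that the genotypes are alike.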
